A study of Homo sapiens with 12 samples.

Results

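The genes described here are 41 genes of the G1/S transition and of DNA replication, in Z-138, an established line of mantle cell lymphoma, a B cell cancer. They were taken by gene symbol, and the list was chosen with earlier results of these data known. All 41 had a row in the table of 13820 genes. All 41 also passed the filter on low counts, which kept 12602 genes. RNA was read in 12 libraries, in 4 groups of 3. Knockdown cells carried an shRNA against SMARCA4, the ATPase that powers SWI/SNF chromatin remodelling, and control cells a control shRNA. Each population received 3 µM ibrutinib, an inhibitor of the kinase BTK, with 3 µM venetoclax, a drug against the survival protein BCL2, or DMSO alone. All 4 groups were grown with doxycycline, the control shRNA and DMSO groups included. The labels name a single SMARCA4 shRNA condition and no length of treatment, so an effect of SMARCA4 loss and another effect of that construct cannot be told apart. The design asks what the knockdown changes in DMSO and under drug, what the drug changes in each population, and whether those drug effects differ.

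As background, cells enter S phase when cyclin E with CDK2 and the cyclin D kinases phosphorylate RB and so free the E2F transcription factors, which with their DP partners switch on most replication genes. ORC, CDC6 and CDT1 load the MCM2-7 helicase at origins in G1, CDC45 and GINS activate it in S phase, and the polymerases follow with the clamp PCNA, its loader RFC and the enzymes that supply nucleotides. Mantle cell lymphoma typically carries a translocation that drives cyclin D1, which acts at this control point.

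SMARCA4 itself was lower in every knockdown library. Its level averaged 170.0 ± 9.67 CPM in knockdown DMSO cells and 577 ± 21.6 CPM in control DMSO cells (SD, n = 3 each; CPM are TMM-scaled counts divided by library size). Under drug it averaged 175 ± 8.66 CPM in knockdown cells and 609.8 ± 28.2 CPM in control cells. Library totals ran from 7279503 to 10151679 counts, except knockdown DMSO replicate 3, which held 22528537. Of 8 B cell and mantle cell lymphoma markers 7 had a row, CD22 being the exception, and all 7 were detected in every library. Their summed level was 4292 to 4515 CPM in knockdown and 4925 to 5761 CPM in control DMSO libraries, and 4193 to 4896 CPM in knockdown and 5273 to 5630 CPM in control libraries under drug. Markers of T and NK cells were represented by CD3G alone of 7, at 1.31 to 2.30 CPM in knockdown and 14.1 to 18.2 CPM in control libraries. No marker of monocytes and macrophages had a row (0 of 5), and of 6 fibroblast and epithelial markers only COL1A1 did, at 14.2 to 15.1 CPM in knockdown and 19.6 to 26.0 CPM in control libraries. These marker levels moved with the knockdown, and their part in the results was not tested. The column for control drug replicate 1 named no treatment and was assigned by elimination, as the only sample without another column. The labels do not say that replicates were separate cultures, so the tests measure the spread between these libraries, which may be technical.

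The promoters of these genes are shown first, because E2F acts there. The sequences are from RefSeq (GRCh38.p14, another build than that of the counts) and run 250 bases up to the transcription start, in the direction of the gene. A promoter was found for 36 of the 41 genes. The words TTTCCCGC, TTTCGCGC, TTTGCCGC and TTTGGCGC, spellings of the E2F site, were searched on both strands with overlapping matches counted separately. They occurred in 16 of 36 promoters (44.4%), against 391 of 8468 (4.62%) of all tested genes with a promoter in that table and 2.79% of all its 27303 promoters. The CCAAT box, bound by NF-Y, occurred in 21 of 36 (58.3%), against 36.1% of tested genes and 33% of all promoters. The genes shown are the 4 with a promoter in the table that passed the threshold in both knockdown comparisons (TYMS, GMNN, FEN1 and RRM2). E2F1 and CDC25A follow, which passed it in DMSO, and MCM6, whose promoter held the most E2F words and which passed in neither. Capitals mark an E2F word, a CCAAT box (CCAAT or its reverse complement ATTGG) or both.
TYMS (chr18:657403-657652, plus strand): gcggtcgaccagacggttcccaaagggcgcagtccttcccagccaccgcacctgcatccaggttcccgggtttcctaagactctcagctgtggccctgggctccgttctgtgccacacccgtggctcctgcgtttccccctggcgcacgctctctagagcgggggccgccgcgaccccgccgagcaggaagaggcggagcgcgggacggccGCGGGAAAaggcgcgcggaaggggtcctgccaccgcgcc
GMNN (chr6:24774687-24774936, plus strand): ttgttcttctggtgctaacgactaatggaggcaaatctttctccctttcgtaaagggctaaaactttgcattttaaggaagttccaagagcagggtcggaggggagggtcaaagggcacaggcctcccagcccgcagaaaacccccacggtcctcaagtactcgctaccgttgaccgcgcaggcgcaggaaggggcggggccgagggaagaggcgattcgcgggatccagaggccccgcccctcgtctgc
FEN1 (chr11:61792661-61792910, plus strand): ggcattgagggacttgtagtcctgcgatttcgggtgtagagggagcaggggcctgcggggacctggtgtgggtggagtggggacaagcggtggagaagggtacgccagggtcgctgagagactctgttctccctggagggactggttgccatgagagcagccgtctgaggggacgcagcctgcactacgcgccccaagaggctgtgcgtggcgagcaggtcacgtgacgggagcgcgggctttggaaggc
RRM2 (chr2:10122489-10122738, plus strand): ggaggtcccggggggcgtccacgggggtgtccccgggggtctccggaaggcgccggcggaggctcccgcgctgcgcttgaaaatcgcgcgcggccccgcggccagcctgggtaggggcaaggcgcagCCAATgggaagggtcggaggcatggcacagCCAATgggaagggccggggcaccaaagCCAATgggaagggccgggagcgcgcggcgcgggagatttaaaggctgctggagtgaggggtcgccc
E2F1 (chr20:33686386-33686635, minus strand): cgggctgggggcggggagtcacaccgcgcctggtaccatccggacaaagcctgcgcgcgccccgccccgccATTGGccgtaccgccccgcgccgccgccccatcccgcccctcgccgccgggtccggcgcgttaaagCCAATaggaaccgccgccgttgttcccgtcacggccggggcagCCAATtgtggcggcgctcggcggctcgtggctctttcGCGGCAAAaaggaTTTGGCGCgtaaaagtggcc
CDC25A (chr3:48188418-48188667, minus strand): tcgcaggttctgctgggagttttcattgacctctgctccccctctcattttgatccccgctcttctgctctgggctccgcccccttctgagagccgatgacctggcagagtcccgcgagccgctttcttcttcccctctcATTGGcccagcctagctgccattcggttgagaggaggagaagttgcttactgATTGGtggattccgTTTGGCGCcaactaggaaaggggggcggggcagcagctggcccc
MCM6 (chr2:135876444-135876693, minus strand): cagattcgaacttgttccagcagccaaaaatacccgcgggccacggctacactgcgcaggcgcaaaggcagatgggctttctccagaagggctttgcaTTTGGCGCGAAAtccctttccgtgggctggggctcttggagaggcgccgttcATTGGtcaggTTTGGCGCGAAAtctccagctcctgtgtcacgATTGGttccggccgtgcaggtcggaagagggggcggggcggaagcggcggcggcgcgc
E2F words lay at 39 bases before the start in TYMS, at 33 and 20 in E2F1 and at 44 in CDC25A. MCM6 held 4, in 2 overlapping pairs at 152 and 148 and at 90 and 86 bases. GMNN and FEN1 held neither motif, and RRM2 held 3 CCAAT boxes and no E2F word. Among genes past the threshold in either knockdown comparison 8 of 13 promoters held an E2F word (61.5%), and among the others 8 of 23 (34.8%). With the window carried on past the start, to 300 bases in all, the counts were 8 of 13 (61.5%) and 12 of 23 (52.2%), so the gap depends on the window. These matches are a description of letters and not of binding.

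SMARCA4 knockdown moved these genes by small amounts and in both directions. In DMSO, 12 of 41 passed the threshold (29.3%), against 31.3% of all genes tested. RRM2 and CDK2 rose (2 genes, against 15.1% of all genes), and CDC25A, E2F1, E2F2, GMNN, MCM3, MCM5, GINS2, RPA2, FEN1 and TYMS fell (10 genes, against 16.2%). Under drug, 10 of 41 passed (24.4%, against 31.1% of all genes). CDK2, ORC6 and RRM2 rose (3 genes, against 14.8%), and GMNN, MCM5, POLA1, PRIM1, FEN1, LIG1 and TYMS fell (7 genes, against 16.3%). The threshold was an adjusted p of 0.05 in edgeR's quasi-likelihood test, adjusted by Benjamini-Hochberg over all 12602 genes, and every adjusted p below is of that test unless another is named. Both shares, of calls in either direction, were near those of all genes, so the total number of calls does not set these genes apart. By direction, more of the 41 fell than rose. With TMM scaling all genes split almost evenly (1899 higher and 2041 lower in DMSO, 1860 and 2059 under drug). With library totals as scaling the split of the 41 under drug turned, as given below, and the split of all genes is not given. The difference between the split of the 41 and that of all genes was not tested. In bulk libraries, fewer cells in S phase and less RNA per cell cannot be told apart.

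Some counts depended on single libraries. Without knockdown DMSO replicate 1, knockdown DMSO replicate 2 or control DMSO replicate 1, 1 gene in place of 2 was higher in DMSO, and without knockdown DMSO replicate 3, the deepest, 4 were. Without control drug replicate 1, the library assigned by elimination, 2 genes were higher and 5 lower under drug in place of 3 and 7. With library totals alone as scaling, 8 were higher and 2 lower under drug, and the median over all genes moved to 0.08. The 5 genes added as higher were E2F3, MCM10, RFC2, RFC4 and UHRF1, and the 2 that stayed lower were POLA1 and TYMS. In DMSO 3 were higher and 10 lower with that scaling.

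The sizes were small beside those of the transcriptome. The log2 fold changes of the 41 genes ran from -0.30 to 0.29 in DMSO and from -0.33 to 0.24 under drug. No gene reached a 1.5-fold change, while 11.9% of all genes passed the threshold with at least that change in DMSO and 12.4% did under drug. Of all genes tested, 35.5% had a larger change in DMSO than any of the 41, and 33.5% did under drug. These shares were not matched for expression level, and all genes tested include genes at lower levels than the 41. With the drug in control cells, 21.3% had a larger change than any of the 41, although only 1.29% of all genes were called. With the drug in knockdown cells 9.7% did, also with 1.29% called. The median log2 fold change of the 41 was -0.06 in DMSO and -0.11 under drug, against 0.0038 and 0.0018 over all genes. The median in DMSO was -0.01 without control DMSO replicate 3 and -0.04 with library totals, and the one under drug was -0.06 without control drug replicate 3 and -0.02 with library totals. Added together, the 41 genes held 5784 ± 19.9 CPM in knockdown and 6035 ± 87.3 CPM in control DMSO libraries (SD, n = 3 each). Under drug they held 5888 ± 13.4 CPM in knockdown and 6056 ± 135 CPM in control libraries. With TMM scaling the 3 knockdown libraries lay below the 3 control libraries in both treatments. As a share of each library's total count, the order under drug was the opposite: 0.615%, 0.5999% and 0.605% in knockdown and 0.591%, 0.582% and 0.595% in control libraries. In DMSO the shares were 0.5796%, 0.585% and 0.578% in knockdown and 0.599%, 0.591% and 0.601% in control libraries, the same order as with TMM.

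**Figure D1:**
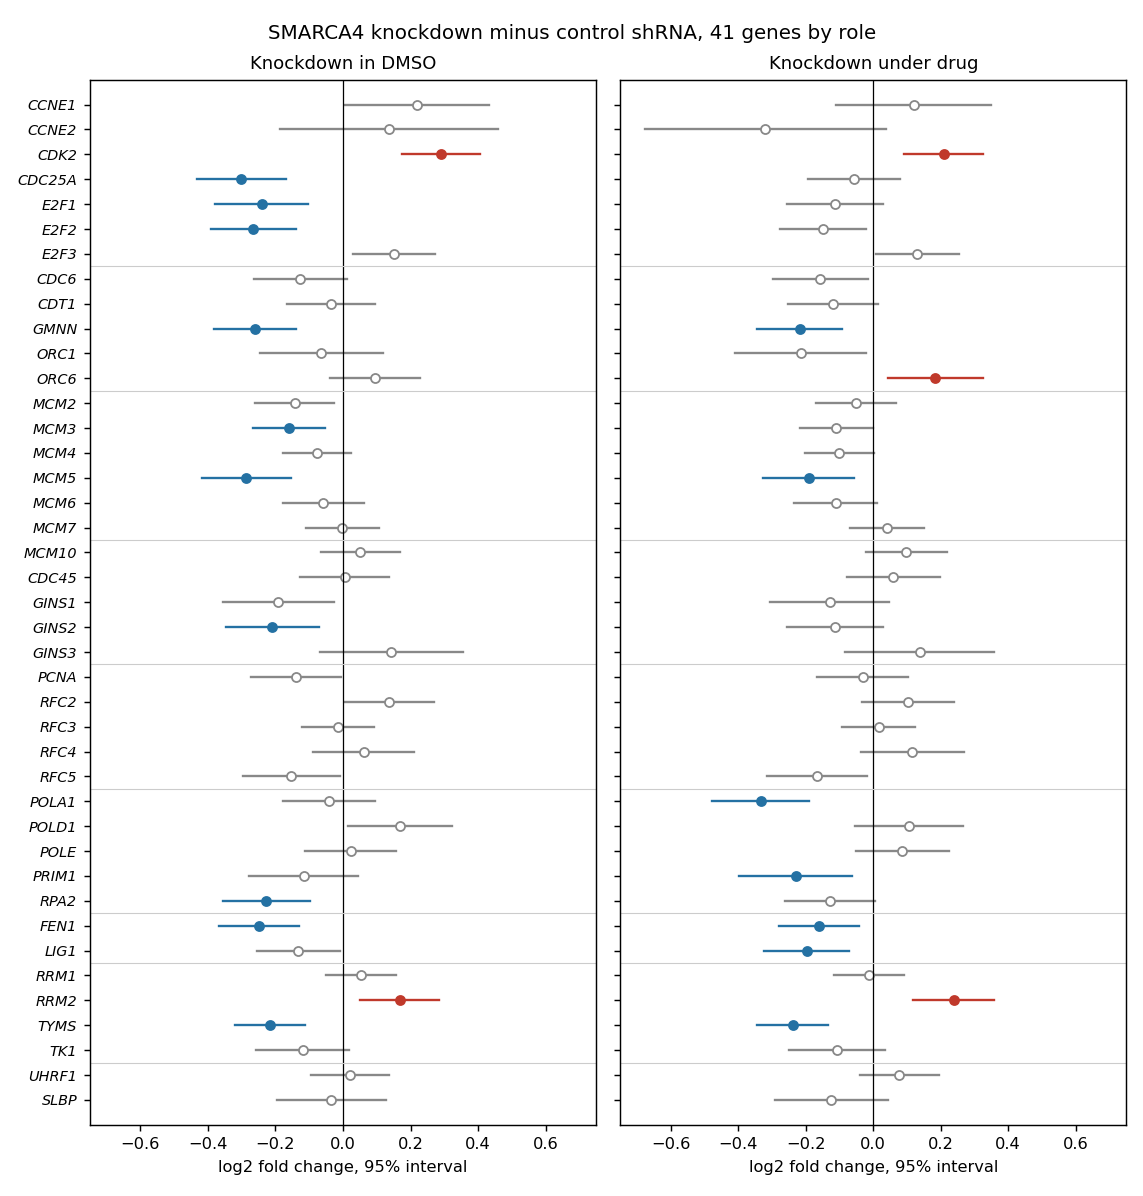
Log2 fold change of each of the 41 genes, SMARCA4 shRNA over control shRNA, in DMSO (left) and under drug (right), with its 95% interval, genes ordered by role. Filled red points passed the threshold higher in knockdown, filled blue points lower, and open grey points did not pass. All points lie between -0.33 and 0.29.

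The comparisons in DMSO and under drug share no library. Of the 41 genes, 6 passed the threshold in both in the same direction, which is 50% of the calls in DMSO and 60% of those under drug, and 0 passed in opposite directions. Over all genes 2866 passed both in the same direction, 72.7% of the calls in DMSO and 73.1% of those under drug. The log2 fold changes of 37 of the 41 genes (90.2%) had the same sign in both, against 79.1% of all genes. These shares were not matched for expression level either, and all genes tested include genes at lower levels than the 41. The 6 genes were CDK2 and RRM2, higher, and GMNN, MCM5, FEN1 and TYMS, lower.

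**Figure D2:**
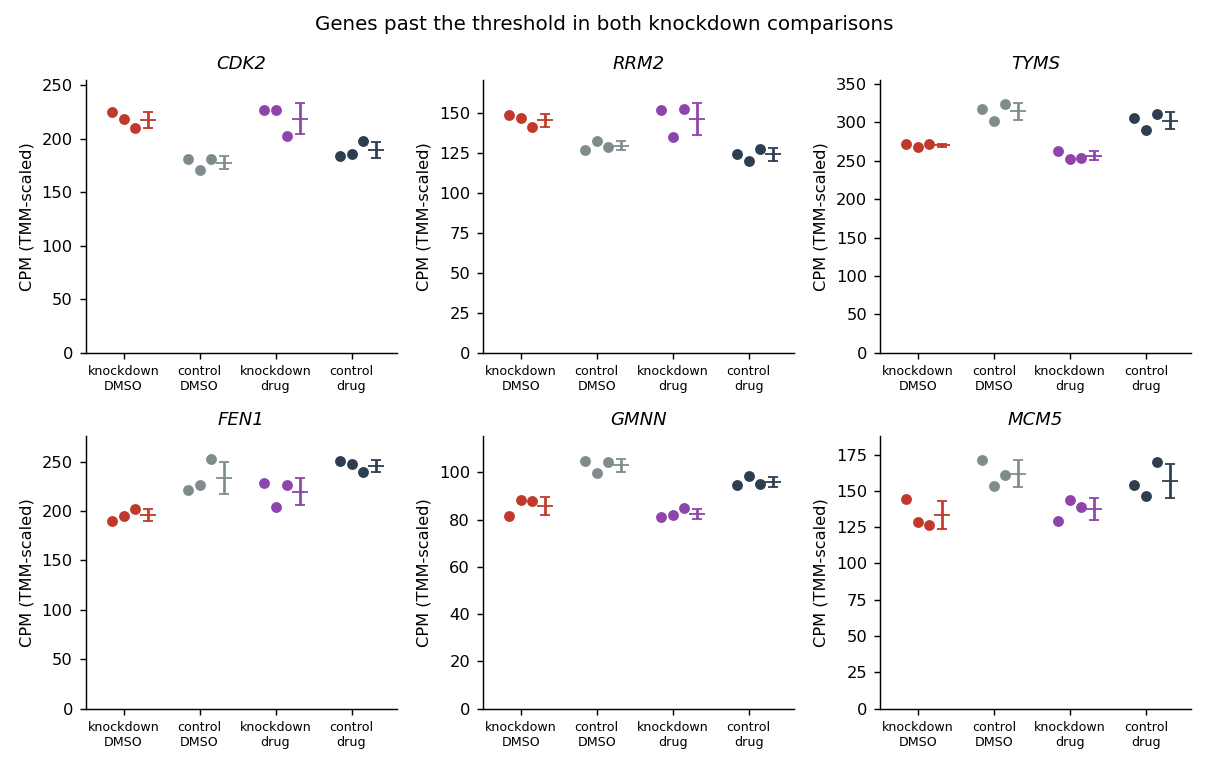
Level in CPM of the 6 genes past the threshold in both knockdown comparisons, a point for each library and a bar for the mean ± SD of 3, by shRNA and treatment. CDK2 and RRM2 stand higher in the knockdown libraries, and TYMS, FEN1, GMNN and MCM5 lower, with no overlap between shRNAs in either treatment.

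Among the genes of G1/S control in DMSO, the kinase gene CDK2 rose and CDC25A, the gene of its activating phosphatase, fell. Of the activating E2F genes, E2F1 and E2F2 fell there and E2F3 did not pass. CDK2 (ENSG00000123374), the partner of cyclin E, held 225, 218 and 209.8 CPM in knockdown DMSO libraries, against 181, 171 and 181 CPM in control DMSO libraries. With drug it held 227, 227 and 202 CPM in knockdown and 184, 186 and 198 CPM in control libraries. Every knockdown library was higher than every control library of its treatment. The log2 fold change was 0.29 in DMSO (SE 0.06, adjusted p = 0.000145), the smallest adjusted p of the 41, and 0.21 under drug (SE 0.06, adjusted p = 0.00521). CDK2 went the other way from the other called members of its role. In the GENCODE 29 annotation its exons share 89 bases with PMEL and 565 with a noncoding antisense gene, both on the opposite strand. PMEL was not among the genes tested. The strand setting of the counting is not given in the sources used here, so reads of such overlapping genes could not be told apart.

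CDC25A (ENSG00000164045), the phosphatase that activates CDK2, held 85.9, 82.6 and 85.03 CPM in knockdown DMSO libraries, against 103, 109 and 99.8 CPM in control DMSO libraries. No knockdown library reached a control library. CDC25A fell by 0.30 in log2 units (SE 0.06, adjusted p = 0.000499), the largest decrease of the 41 in DMSO. Drug-treated levels were 91.7, 84.9 and 95.8 CPM in knockdown and 103, 91.6 and 88.8 CPM in control libraries, which overlapped (log2 fold change -0.06, adjusted p = 0.567). The test of the difference between these knockdown effects is the interaction, given below, and did not pass.

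E2F1 (ENSG00000101412), an activating E2F, held 147, 133 and 139.8 CPM in knockdown DMSO libraries, against 186, 157 and 153 CPM in control DMSO libraries, without overlap. It fell by 0.24 (SE 0.07, adjusted p = 0.00618). Control DMSO replicate 1 was the highest of these libraries, and without it the value was -0.13 with an adjusted p of 0.161. Under drug E2F1 held 132, 153 and 134 CPM in knockdown and 149, 147 and 158 CPM in control libraries, with a log2 fold change of -0.11 (adjusted p = 0.228). E2F2 (ENSG00000007968), a further activating member, had 96.9, 97.05 and 90.1 CPM in knockdown and 121, 106 and 113 CPM in control DMSO libraries, without overlap. E2F2 fell by 0.27 in DMSO (SE 0.06, adjusted p = 0.00107), and under drug its log2 fold change was -0.15 (adjusted p = 0.0711). E2F3, the other activating E2F here, averaged 119.6 ± 6.13 CPM in knockdown and 107 ± 4.67 CPM in control DMSO libraries (SD, n = 3 each). Its log2 fold change of 0.13 under drug did not pass (adjusted p = 0.104). Its knockdown libraries lay wholly above the control libraries in both treatments. In DMSO its log2 fold change of 0.15 lay just outside the threshold (adjusted p = 0.0501), inside it in 14 of 22 alternative analyses. Those included the fits without knockdown DMSO replicate 3 (0.19, adjusted p = 0.0360), control DMSO replicate 2 (0.19, adjusted p = 0.0405), any 1 knockdown drug library (adjusted p = 0.0386, 0.0493 and 0.0415) or control drug replicate 3 (adjusted p = 0.0476).

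The cyclin E genes, whose products activate CDK2, did not pass in either comparison. CCNE1 (ENSG00000105173), cyclin E1, held 21.98, 22.1 and 18.6 CPM in knockdown DMSO libraries, against 16.1, 19.1 and 18.02 CPM in control DMSO libraries, which overlapped. Drug-treated cells held 19.03, 19.2 and 18.5 CPM in knockdown and 16.3, 18.5 and 17.5 CPM in control libraries, without overlap. Its log2 fold changes were 0.22 in DMSO (SE 0.10, adjusted p = 0.113) and 0.12 under drug (SE 0.11, adjusted p = 0.460). Without knockdown DMSO replicate 3, the value in DMSO was 0.33 and passed (adjusted p = 0.0340). CCNE2, cyclin E2, averaged 8.37 ± 1.59 CPM in knockdown and 7.77 ± 0.678 CPM in control DMSO cells, and 6.64 ± 0.817 CPM in knockdown and 8.28 ± 0.691 CPM in control cells under drug. Neither difference passed (adjusted p = 0.561 and 0.174), and its intervals were the widest of the 41, reaching -0.68 under drug.

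Of the 5 licensing genes, 1 passed in DMSO (20%, against 31.3% of all genes) and 2 under drug (40%, against 31.1%). GMNN fell in both knockdown comparisons and ORC6 rose under drug. GMNN (ENSG00000112312) encodes geminin, which blocks relicensing by binding CDT1. It held 81.4, 88.3 and 87.7 CPM in knockdown DMSO libraries, against 105, 99.9 and 104 CPM in control DMSO libraries. Under drug its levels were 80.98, 81.8 and 84.9 CPM in knockdown and 94.7, 98.5 and 95.01 CPM in control libraries. No knockdown library reached a control library of its treatment. GMNN fell by 0.26 in DMSO (SE 0.06, adjusted p = 0.000837) and by 0.22 under drug (SE 0.06, adjusted p = 0.00659). With library totals as scaling the value under drug was -0.14 (adjusted p = 0.0922).

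CDC6 (ENSG00000094804), a helicase loader, held 89.9, 85.97 and 86.01 CPM in knockdown and 106, 91.7 and 87.6 CPM in control DMSO libraries, and 88.2, 94.5 and 94.7 CPM in knockdown and 97.7, 102 and 109.6 CPM in control libraries under drug. Its knockdown libraries lay below the control libraries under drug and overlapped them in DMSO. The log2 fold changes of -0.13 and -0.16 did not pass (adjusted p = 0.160 in DMSO and 0.0846 under drug). CDT1 (ENSG00000167513), the loading factor that geminin binds, had 158, 145 and 148 CPM in knockdown and 148, 153 and 161 CPM in control DMSO libraries. Under drug CDT1 had 147, 151 and 151 CPM in knockdown and 155, 149 and 184 CPM in control libraries, control replicate 3 being the highest. It overlapped in both treatments (log2 fold changes -0.04 and -0.12, adjusted p = 0.718 and 0.172). ORC1, a subunit of the origin recognition complex, averaged 24.9 ± 0.454 CPM in knockdown and 25.99 ± 1.66 CPM in control DMSO cells and did not pass in either treatment (adjusted p = 0.633 and 0.0833).

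ORC6 (ENSG00000091651), another subunit of that complex, held 109.6, 102 and 93.4 CPM in knockdown libraries under drug, against 88.9, 96.7 and 82.2 CPM in control libraries under drug. In DMSO it held 112, 107 and 116 CPM in knockdown and 104, 109 and 102 CPM in control libraries. The groups overlapped in both treatments. ORC6 rose by 0.18 under drug (SE 0.07, adjusted p = 0.0407), opposite to GMNN, and had 0.09 in DMSO (adjusted p = 0.300). The call under drug was lost without knockdown drug replicate 1 (0.14, adjusted p = 0.193) or 2 (0.18, adjusted p = 0.0799), and without control drug replicate 1 (0.18, adjusted p = 0.0880) or 3 (0.13, adjusted p = 0.195). It was also lost in DESeq2 (adjusted p = 0.0541) and in the fit of the 2 groups alone (adjusted p = 0.0599).

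The 6 subunits of the MCM2-7 helicase, the ring that unwinds DNA at the fork, were represented by 2 genes past the threshold in DMSO (33.3%, against 31.3% of all genes) and 1 under drug (16.7%, against 31.1%). In DMSO 5 of the 6 had log2 fold changes below 0 in all 22 alternatives, and MCM7, at -0.0021, changed sign in 10. Of all 12602 genes, 6237 were below 0. MCM5 (ENSG00000100297) held 144, 129 and 126 CPM in knockdown DMSO libraries, against 171, 153 and 161 CPM in control DMSO libraries. Under drug MCM5 held 129, 144 and 139 CPM in knockdown and 154, 147 and 169.8 CPM in control libraries. The groups did not overlap in either treatment. MCM5 fell by 0.29 in DMSO (SE 0.06, adjusted p = 0.000803) and by 0.19 under drug (SE 0.07, adjusted p = 0.0261). The call under drug was lost without knockdown drug replicate 1 (-0.14, adjusted p = 0.166), without control drug replicate 3 (-0.13, adjusted p = 0.196) and with library totals (-0.11, adjusted p = 0.194).

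MCM2 (ENSG00000073111) held 204, 209 and 227 CPM in knockdown and 234, 230.3 and 244 CPM in control DMSO libraries, without overlap, yet missed the threshold (log2 fold change -0.14, SE 0.06, adjusted p = 0.0578). It passed without knockdown DMSO replicate 3 (-0.18, adjusted p = 0.0313), knockdown drug replicate 3 (-0.14, adjusted p = 0.0489) or control drug replicate 3 (-0.14, adjusted p = 0.0475). Under drug MCM2 held 259, 241 and 229 CPM in knockdown and 263, 253 and 238 CPM in control libraries (log2 fold change -0.05, adjusted p = 0.559). MCM3 (ENSG00000112118) averaged 234 ± 9.10 CPM in knockdown and 261 ± 4.85 CPM in control DMSO cells (SD, n = 3 each) and fell by 0.16 (SE 0.05, adjusted p = 0.0195). That call was lost without knockdown DMSO replicate 2 (-0.16, adjusted p = 0.0586) or 3 (-0.12, adjusted p = 0.139) and without control DMSO replicate 3 (-0.14, adjusted p = 0.0910). Under drug MCM3 had -0.11 (adjusted p = 0.122) and passed without knockdown drug replicate 3 (-0.16, adjusted p = 0.0390).

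The other 3 subunits passed in neither comparison. MCM4 averaged 280.0 ± 2.31 CPM in knockdown and 295 ± 0.750 CPM in control DMSO cells, and 271 ± 7.91 CPM in knockdown and 290.1 ± 8.12 CPM in control cells under drug. Its groups did not overlap in either treatment, with log2 fold changes of -0.08 and -0.10 (adjusted p = 0.246 and 0.130). MCM6, whose promoter held 4 E2F words, had -0.06 in DMSO and -0.11 under drug (adjusted p = 0.489 and 0.162). MCM7 averaged 629.9 ± 16.2 CPM in knockdown and 631 ± 25.5 CPM in control DMSO cells. Its interval in DMSO ran from -0.11 to 0.11. Libraries here read the 3' ends of mRNA, so a level in CPM is not divided by gene length and levels of different genes, subunits of the ring included, are not compared further.

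**Figure D3:**
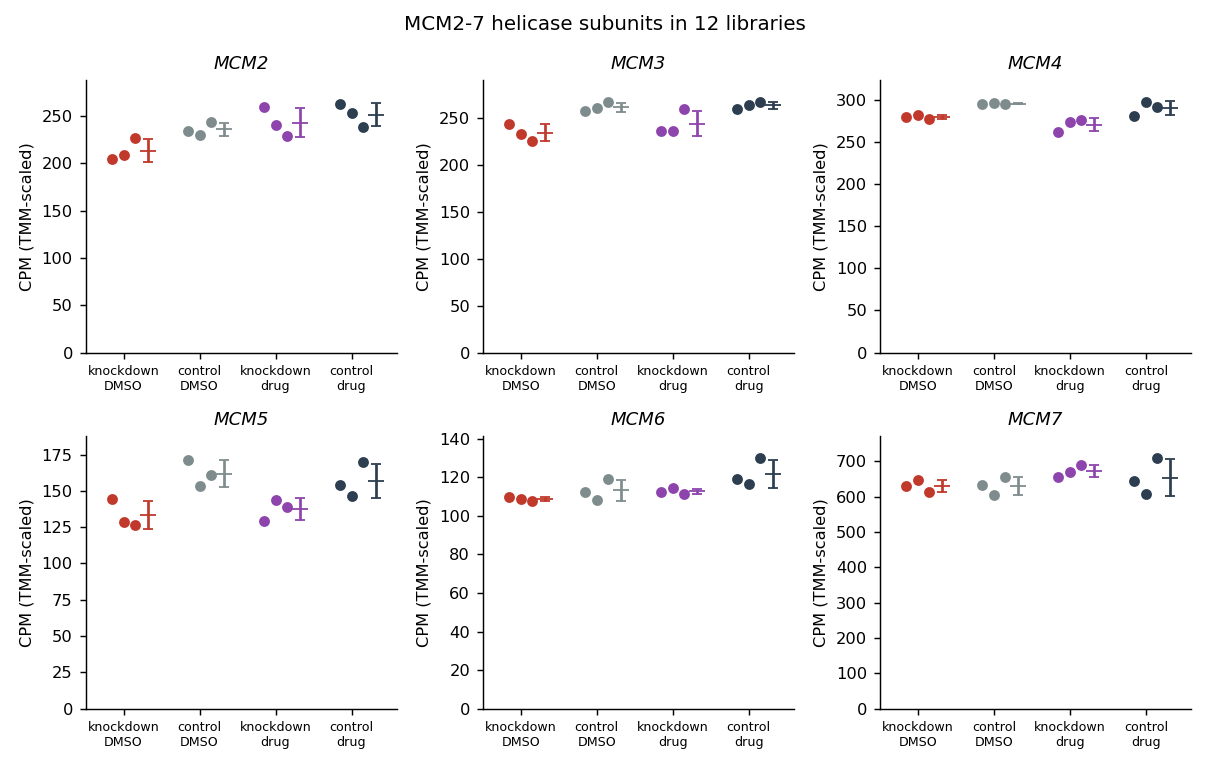
Level in CPM of the 6 subunits of the MCM2-7 helicase, a point for each library and a bar for the mean ± SD of 3, by shRNA and treatment. MCM5 is lower in knockdown libraries in both treatments, while MCM4, MCM6 and MCM7 passed the threshold in no comparison.

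Of the 5 genes of helicase activation, 1 passed in DMSO (20%, against 31.3% of all genes) and 0 under drug (against 31.1%). GINS2, a subunit of the GINS complex, averaged 72.5 ± 3.78 CPM in knockdown and 83.9 ± 5.26 CPM in control DMSO cells (SD, n = 3 each). It fell by 0.21 (SE 0.07, adjusted p = 0.0176), a call lost without knockdown DMSO replicate 1 (-0.17, adjusted p = 0.0903) or 3 (-0.21, adjusted p = 0.0541) and without control DMSO replicate 3 (-0.15, adjusted p = 0.137). Under drug GINS2 had -0.11 (adjusted p = 0.233). GINS1 had -0.19 in DMSO with no overlap (adjusted p = 0.0689), and GINS3 0.14 (adjusted p = 0.318). CDC45, the partner of GINS at the helicase, averaged 68.3 ± 2.04 CPM in knockdown and 68.03 ± 1.65 CPM in control DMSO cells. Its 95% interval in DMSO ran from -0.13 to 0.14. MCM10, a factor that helps start unwinding, had 0.05 in DMSO and 0.10 under drug (adjusted p = 0.548 and 0.220).

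None of the 5 genes of the sliding clamp and its loader passed in either comparison, against 31.3% of all genes in DMSO and 31.1% under drug, with 3 in DMSO and 1 under drug at an unadjusted p below 0.05 in edgeR. PCNA (ENSG00000132646), the clamp that holds polymerases on DNA, held 228, 226 and 253 CPM in knockdown DMSO libraries, against 265, 244 and 271 CPM in control DMSO libraries. Under drug it held 241, 264 and 211 CPM in knockdown and 247, 233 and 251 CPM in control libraries, knockdown replicate 3 being the lowest of the 12. The groups overlapped in both treatments, with log2 fold changes of -0.14 (SE 0.06, adjusted p = 0.106) and -0.03 (SE 0.07, adjusted p = 0.771). Without knockdown DMSO replicate 3, the value in DMSO was -0.19 and passed (adjusted p = 0.0499). The loader genes went in both directions: RFC2 had 0.14 in DMSO and 0.10 under drug, RFC4 0.06 and 0.12, RFC3 -0.01 and 0.02, and RFC5 -0.15 and -0.17. RFC5 passed under drug without control drug replicate 2 (-0.24, adjusted p = 0.0202).

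POLA1 (ENSG00000101868), the catalytic subunit of DNA polymerase alpha, which starts new strands, showed the largest decrease of the 41 under drug. Its levels there were 55.6, 55.9 and 60.1 CPM in knockdown libraries, against 77.4, 69.7 and 69.3 CPM in control libraries, without overlap. In DMSO the levels were 70.4, 66.2 and 64.9 CPM in knockdown and 66.9, 68.4 and 71.6 CPM in control libraries, which overlapped. POLA1 fell by 0.33 under drug (SE 0.07, adjusted p = 0.000389) and had -0.04 in DMSO (SE 0.07, adjusted p = 0.687). The call under drug held in all 22 alternative analyses, with values from -0.37 to -0.25. PRIM1, the primase subunit that works with POLA1, averaged 41.5 ± 4.14 CPM in knockdown and 48.5 ± 3.59 CPM in control cells under drug (SD, n = 3 each), with overlap. It fell by 0.23 (SE 0.08, adjusted p = 0.0317). The PRIM1 call was lost in 7 of 22 alternatives, among them DESeq2 (adjusted p = 0.0597), library totals (-0.15, adjusted p = 0.192) and the 2 groups alone (adjusted p = 0.0515). Leaving out knockdown drug replicate 2 (-0.18, adjusted p = 0.151) or 3 (-0.20, adjusted p = 0.114), or control drug replicate 1 (-0.18, adjusted p = 0.167) or 2 (-0.23, adjusted p = 0.0717), also ended it.

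RPA2 (ENSG00000117748), a subunit of the protein that coats single-stranded DNA, held 74.04, 74.03 and 75.8 CPM in knockdown DMSO libraries, against 84.3, 89.8 and 88.3 CPM in control DMSO libraries. The groups did not overlap. RPA2 fell by 0.23 in DMSO (SE 0.06, adjusted p = 0.00573) and had -0.13 under drug (adjusted p = 0.138). The catalytic subunits of the leading and lagging strand polymerases did not pass: POLE had 0.02 in DMSO and 0.09 under drug, and POLD1 0.17 and 0.11. POLD1 passed in DMSO in the fit of the 2 groups alone (0.18, adjusted p = 0.0489).

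Of the 2 genes that process and join Okazaki fragments, 1 fell in DMSO (against 16.2% of all genes) and both fell under drug (against 16.3%). With 2 genes, these counts are not read as a result about the role. FEN1 (ENSG00000168496), the flap endonuclease that trims the primer end, held 190.4, 195 and 203 CPM in knockdown DMSO libraries, against 221, 226 and 252 CPM in control DMSO libraries. Under drug it held 229, 204 and 226 CPM in knockdown and 250.2, 247 and 239 CPM in control libraries. Neither treatment had an overlap. FEN1 fell by 0.25 in DMSO (SE 0.06, adjusted p = 0.00105) and by 0.16 under drug (SE 0.06, adjusted p = 0.0346). The call under drug was lost in 6 of 22 alternatives. They were the fits without knockdown drug replicate 2 (-0.11, adjusted p = 0.208), control drug replicate 1 (-0.15, adjusted p = 0.112) or control drug replicate 2 (-0.16, adjusted p = 0.0842), library totals (-0.08, adjusted p = 0.340), no filter on low counts (adjusted p = 0.0543) and the 2 groups alone (adjusted p = 0.0555). FEN1 shares exon bases with FADS2 (49) and, on the opposite strand, TMEM258 (166), and both were among the genes tested.

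LIG1 (ENSG00000105486), the ligase that seals the fragments, held 185, 198 and 183 CPM in knockdown and 207, 212 and 231 CPM in control libraries under drug, without overlap. In DMSO its levels were 212, 197 and 209 CPM in knockdown and 242, 229 and 205 CPM in control libraries, which overlapped. LIG1 fell by 0.20 under drug (SE 0.06, adjusted p = 0.0133) and had -0.13 in DMSO (adjusted p = 0.0952). The call under drug was lost without knockdown drug replicate 1 (-0.17, adjusted p = 0.0673) or 3 (-0.18, adjusted p = 0.0531), without control drug replicate 3 (-0.14, adjusted p = 0.106) and with library totals (-0.12, adjusted p = 0.140). In DMSO it passed without control DMSO replicate 3 (-0.19, adjusted p = 0.0257).

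The nucleotide supply genes split. TYMS (ENSG00000176890), thymidylate synthase, which makes thymidylate for DNA, held 272, 268 and 272 CPM in knockdown DMSO libraries, against 318, 302 and 323 CPM in control DMSO libraries. Under drug TYMS held 263, 252 and 254 CPM in knockdown and 306, 290.5 and 311 CPM in control libraries. Knockdown and control libraries did not overlap in either treatment. TYMS fell by 0.22 in DMSO (SE 0.05, adjusted p = 0.00109) and by 0.24 under drug (SE 0.05, adjusted p = 0.000480). Both calls held in all 22 alternative analyses, with values from -0.24 to -0.19 in DMSO and from -0.27 to -0.16 under drug. The exons of TYMS share 967 bases with ENOSF1 on the opposite strand, which was not among the genes tested.

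RRM2 (ENSG00000171848), the small subunit of ribonucleotide reductase, held 149, 147 and 141 CPM in knockdown DMSO libraries, against 127, 133 and 129 CPM in control DMSO libraries. Under drug it held 152, 135 and 153 CPM in knockdown and 125, 120.1 and 128 CPM in control libraries. All knockdown libraries were above the control libraries of their treatment, the opposite of TYMS. RRM2 rose by 0.17 in DMSO (SE 0.06, adjusted p = 0.0260) and by 0.24 under drug (SE 0.06, adjusted p = 0.00232). The call in DMSO was lost without knockdown DMSO replicate 1 (0.15, adjusted p = 0.0878) or 2 (0.16, adjusted p = 0.0708) and without control DMSO replicate 1 (0.17, adjusted p = 0.0669). RRM1, the large subunit of the same enzyme, averaged 406 ± 6.03 CPM in knockdown and 391 ± 13.03 CPM in control DMSO cells (SD, n = 3 each) and had 0.05 in DMSO and -0.01 under drug (adjusted p = 0.454 and 0.885). TK1, the thymidine kinase of S phase, had -0.12 and -0.11 (adjusted p = 0.192 and 0.257). RRM2 shares 1077 exon bases with an overlapping annotated gene on the same strand.

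UHRF1, which guides maintenance of DNA methylation, and SLBP, which binds histone mRNA, passed in neither comparison. UHRF1 averaged 178 ± 5.73 CPM in knockdown and 176 ± 6.32 CPM in control DMSO cells (SD, n = 3 each), with log2 fold changes of 0.02 in DMSO and 0.08 under drug. SLBP averaged 63.3 ± 3.61 CPM in knockdown and 65.3 ± 6.14 CPM in control DMSO cells, with -0.03 and -0.12. In unadjusted tests of edgeR, 21 of the 41 genes had a p below 0.05 in DMSO and 16 did under drug, against 40.3% and 40.4% of all genes. In DMSO knockdown libraries lay wholly above control libraries for 7 genes (21.4% of all genes) and wholly below for 16 (21.5%; 42.9% for either). Under drug they lay above for 6 genes (19.8%) and below for 14 (21.2%; 41% for either). Of the 41 genes, 15 share exon bases with another annotated gene, 13 of them on the opposite strand, and 8 have pseudogenes named after them, whose reads the counting could have split.

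Further genes of the same pathways, from lists chosen with earlier results of these data known, were read from the same tests. Of 34 other fork and origin genes, 0 rose and 5 fell in DMSO (14.7%, against 31.3% of all genes), and 1 rose and 8 fell under drug (26.5%, against 31.1%). Their median log2 fold changes were -0.02 and -0.0037. RPA3, a subunit of the complex that holds RPA2, fell by 0.29 in DMSO (SE 0.07, adjusted p = 0.000741) and by 0.27 under drug (SE 0.07, adjusted p = 0.00221). In DMSO POLE3, an accessory subunit of polymerase epsilon, fell by 0.27 (adjusted p = 0.000226), and SSRP1, a subunit of the histone chaperone FACT, fell by 0.19 (adjusted p = 0.00299). SSRP1 lost its call in DMSO without knockdown DMSO replicate 3 (-0.14, adjusted p = 0.0554). Under drug MCM8, an MCM relative outside the ring, fell by 0.38 (adjusted p = 0.000120) and SUPT16H, the other FACT subunit, by 0.19 (adjusted p = 0.00363; -0.10 and 0.0962 with library totals). DNA2, a helicase and nuclease, rose by 0.43 under drug (adjusted p = 0.0456) with overlapping libraries, and lost the call in 9 of 22 alternatives, with adjusted p up to 0.254. Without single libraries the DMSO count of 5 lower was as low as 2, without knockdown DMSO replicate 3, and 3 without knockdown DMSO replicate 2 or control DMSO replicate 1 or 2. It was 3 with library totals. In DMSO the count of 0 higher was 2 without knockdown DMSO replicate 2, 1 without control DMSO replicate 3 or knockdown drug replicate 3, and 1 in the 2 groups alone. The count of 8 lower under drug was 5 without knockdown drug replicate 1 and 4 without replicate 2, and 3 with library totals, which also gave 3 higher in place of 1.

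Of 27 other E2F, RB and CDK regulators, 1 rose and 5 fell in DMSO (22.2%), and 1 rose and 6 fell under drug (25.9%), against 31.3% and 31.1% of all genes, with median log2 fold changes of -0.05 and -0.07. The genes of the DP proteins, with which E2F factors bind DNA, moved in opposite directions. TFDP2 held 272, 270.4 and 261 CPM in knockdown DMSO libraries, against 169, 174 and 158 CPM in control DMSO libraries. Under drug TFDP2 held 259, 283 and 283 CPM in knockdown and 154, 174 and 162 CPM in control libraries. It rose by 0.68 in DMSO (SE 0.06, adjusted p = 3.57e-11) and by 0.75 under drug (SE 0.06, adjusted p = 4.99e-12), more than any of the 41 genes. TFDP1 held 206, 182 and 189 CPM in knockdown and 212, 228 and 260.4 CPM in control DMSO libraries, and fell by 0.28 in DMSO (adjusted p = 0.000896) and by 0.35 under drug (adjusted p = 0.000101). CCND1, cyclin D1, the gene driven by the translocation of this lymphoma, averaged 3554 ± 114 CPM in knockdown and 4478 ± 395 CPM in control DMSO cells (SD, n = 3 each). CCND1 fell by 0.33 in DMSO (adjusted p = 5.31e-05) and by 0.31 under drug (adjusted p = 0.000127). CCNA2, cyclin A2, fell by 0.32 in DMSO (adjusted p = 0.000670), and WEE1, a kinase that restrains CDK1, by 0.36 under drug (adjusted p = 0.00136). The calls given here held in all 22 alternatives. The count of 1 higher in DMSO was 2 without knockdown drug replicate 1, knockdown drug replicate 2 or control drug replicate 3, and 2 with library totals in both treatments.

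Of 24 other genes of nucleotide supply and S phase chromatin, 0 rose and 9 fell in DMSO (37.5%), and 0 rose and 7 fell under drug (29.2%), near the 31.3% and 31.1% of all genes, with median log2 fold changes of -0.04 and -0.0024. In DMSO CHAF1A, a subunit of the chaperone that deposits histones behind the fork, fell by 0.35 (adjusted p = 1.99e-05) and RBBP7, a histone-binding protein, by 0.33 (adjusted p = 6.28e-05). Under drug CAD, which starts pyrimidine synthesis, fell by 0.44 (adjusted p = 6.51e-07) and TOP2A, topoisomerase II alpha, by 0.39 (adjusted p = 5.30e-07). Without knockdown DMSO replicate 3, the count of 9 lower in DMSO was 5. With library totals 3 genes of this list were higher under drug in place of 0. POLD4, CCND2 and CDKN2A had no row under those symbols.

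**Figure D4:**
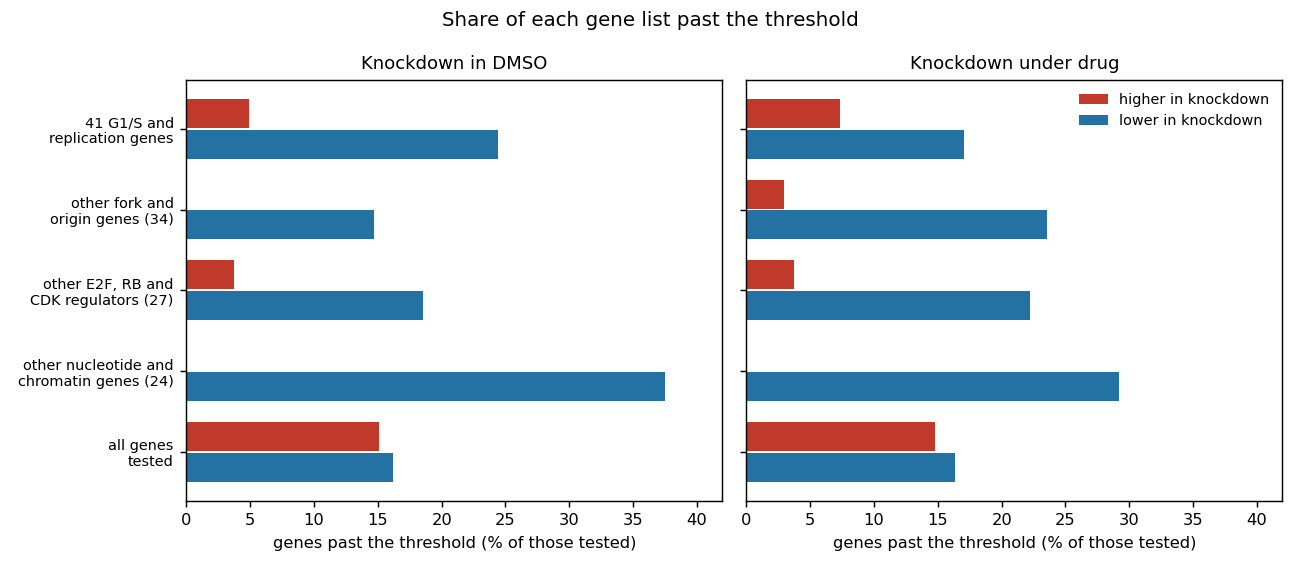
Percent of each gene list past the threshold, higher (red) or lower (blue) in SMARCA4 knockdown, in DMSO (left) and under drug (right), for the 41 genes, 3 other pathway lists (number tested in brackets) and all 12602 genes tested. With TMM scaling, shown here, all genes split almost evenly, while each list has more genes lower than higher. With library totals as scaling, the split under drug was 8 higher and 2 lower for the 41 genes and 3 and 3 for the other fork and origin genes. The median log2 fold change over all genes under drug was 0.08 with that scaling, and their split is not given.

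Ibrutinib with venetoclax left these genes with no call in either population. In control cells 0 of 41 passed (edgeR; 3 at an unadjusted p below 0.05, with 0 calls and 2 such genes in DESeq2 and 0 and 3 in limma-voom), against 1.29% of all genes and 10% unadjusted. In knockdown cells 0 of 41 passed (7 unadjusted, with 0 and 4 in DESeq2 and 0 and 7 in limma-voom), also against 1.29%, and 10.4% unadjusted. The log2 fold changes ran from -0.24 to 0.12 in control cells and from -0.37 to 0.18 in knockdown cells, with medians of 0.02 and 0.0094 against 0.0017 and 0.00063 over all genes. The sign of the median in control cells was not stable: it was -0.02 without control drug replicate 3, -0.00024 without control DMSO replicate 3 and -0.0054 with library totals. It was also 0.0099 without control drug replicate 1 and 0.03 without control drug replicate 2. In knockdown cells the median was 0.03 without knockdown DMSO replicate 1, 0.02 without knockdown drug replicate 2 and 0.05 with library totals. In control cells all 41 intervals lay within 0.5 of 0 on the log2 scale, and in knockdown cells 40 did, all but that of CCNE2. In control cells drug libraries lay wholly above DMSO libraries for 2 genes (7.38% of all genes) and wholly below for 3 (7.18%; 14.6% for either). In knockdown cells they lay above for 5 genes (7.76%) and below for 3 (7.45%; 15.2% for either). All 3 other pathway lists also had 0 calls in both comparisons, except that 1 regulator was lower in knockdown cells without knockdown drug replicate 2 or control drug replicate 3. Drug and knockdown comparisons share libraries, so their values are set side by side without a measure of likeness.

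The member with the smallest adjusted p in control cells was ORC6, with 88.9, 96.7 and 82.2 CPM in drug libraries, against 104, 109 and 102 CPM in DMSO libraries. The drug libraries lay wholly below. The log2 fold change was -0.24 (SE 0.07, adjusted p = 0.0964), and it passed without control drug replicate 2 (-0.30, adjusted p = 0.0493), the single call of a member in any alternative of the drug comparisons. CDC25A had -0.14 (adjusted p = 0.469) and RRM1 0.11 (adjusted p = 0.480). In knockdown cells POLA1 held 55.6, 55.9 and 60.1 CPM in drug libraries, against 70.4, 66.2 and 64.9 CPM in DMSO libraries, without overlap (log2 fold change -0.23, SE 0.07, adjusted p = 0.124). MCM2 held 259, 241 and 229 CPM in drug and 204, 209 and 227 CPM in DMSO libraries, wholly higher with drug (0.18, SE 0.06, adjusted p = 0.143). FEN1 held 229, 204 and 226 CPM in drug and 190.4, 195 and 203 CPM in DMSO libraries, also wholly higher (0.16, SE 0.06, adjusted p = 0.235). E2F1, CCNE1, CDT1, PCNA, TYMS and RRM2 had values between -0.12 and 0.01 in knockdown cells and between -0.13 and 0.08 in control cells.

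**Figure D5:**
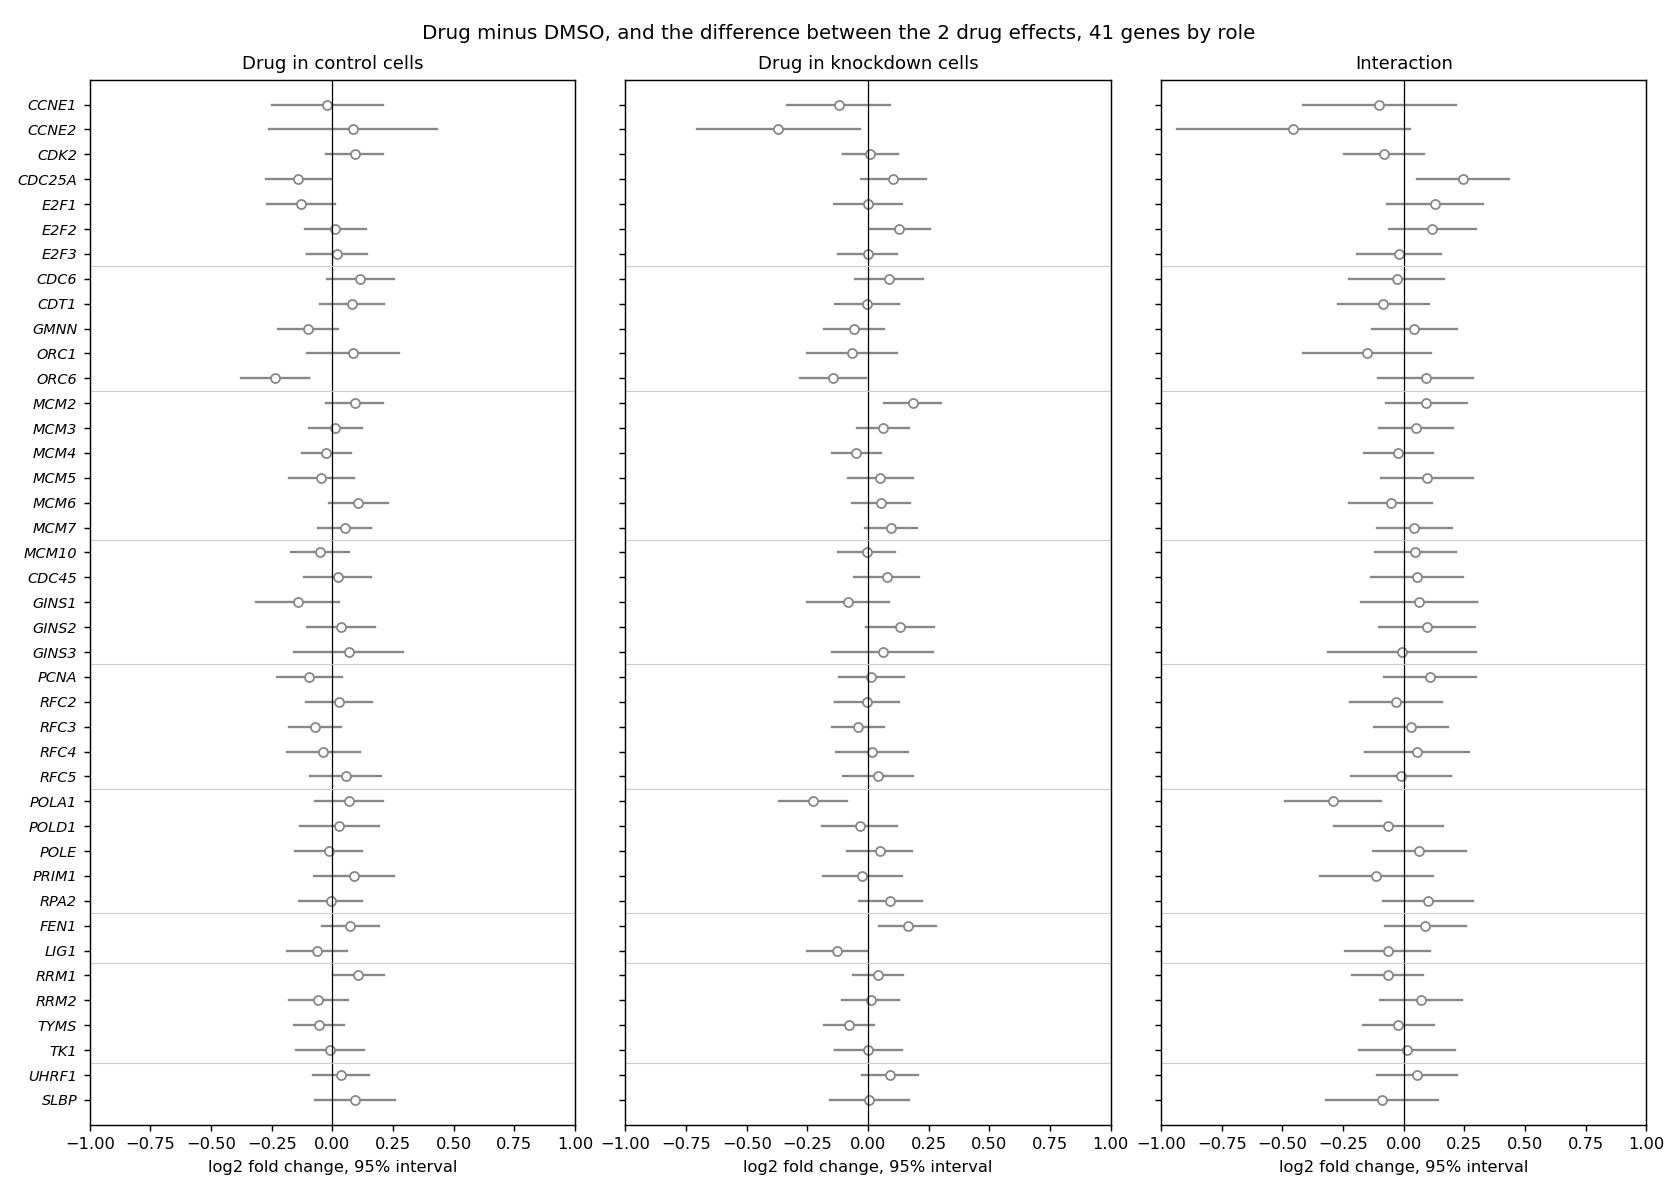
Log2 fold change of each of the 41 genes with its 95% interval, drug over DMSO in control cells (left) and in knockdown cells (middle), and the first of these subtracted from the second (right). All points are open, since 0 genes passed the threshold, and CCNE2 has the widest intervals.

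The interaction subtracts the drug effect of control cells from that of knockdown cells, and equals the knockdown effect under drug less the one in DMSO. No member passed (0 of 41 in edgeR, DESeq2 and limma-voom, with 2 at an unadjusted p below 0.05 in each), against 0.0238% of all genes, or 3, and 5.35% unadjusted. The values ran from -0.46 for CCNE2 to 0.24 for CDC25A, with a median of 0.03, which ran from 0.0037 without knockdown drug replicate 3 to 0.09 with library totals. It was also 0.0055 without control drug replicate 2 and 0.01, 0.0088 and 0.01 without knockdown DMSO replicates 1, 2 and 3, and 0.02 without knockdown drug replicate 1. The 2 genes were POLA1, at -0.29 (SE 0.10, 95% interval -0.49 to -0.09, adjusted p = 0.703), and CDC25A, at 0.24 (SE 0.09, 95% interval 0.05 to 0.43, adjusted p = 0.896). POLA1 was thus called with knockdown under drug alone and CDC25A in DMSO alone, without a difference between treatments that passed. For all 41 genes the 95% interval lay within 1 of 0, and for 40 within 0.5. CCNE2, the exception, had the lowest counts, down to 49 in a library, which limits its precision. Its exons also share 1629 bases with INTS8 on the opposite strand, which was among the genes tested. The part of that overlap in its counts was not tested.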

How the data were processed

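RNA from Z-138 cells was isolated and read with the Lexogen QuantSeq 3' kit, per the labels' protocols. Per the submitters' processing notes, HISAT2, HTSeq, the build hg19 and bcl2fastq 2.17.1.14 were used, and no source used here gives the annotation, the strand setting or further versions. Raw gene counts, whole numbers that were not normalized, stand in a single table that the authors deposited. Its columns were assigned by their names, 11 in full and 1 by elimination. The 41 genes, the further lists and the rule for naming genes were chosen with earlier results of these data known. The rule names any of the 41 genes and, of each further list, up to 3 genes per comparison and direction with the smallest adjusted p. Of the genes picked by this rule from the further lists, 1 is not reported here. E2F3, the counts lost without single libraries and the genes added by another scaling were singled out after their values were seen.

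Genes were kept by edgeR's filterByExpr (minimum count 10, minimum total 15), which left 12602 of 13820. Counts were scaled by TMM, and all 12 libraries entered a quasi-likelihood fit with 1 coefficient per group in edgeR 4.0.16 (R 4.3.3), with 8 residual degrees of freedom and a biological coefficient of variation of 5.69%. Tests are two-sided, with Benjamini-Hochberg adjustment over all genes and a threshold of 0.05. SEs come from the fold change and its F statistic, and intervals (95%) are approximate. The scripts were tested on simulated counts. Alternatives were DESeq2 size factors, library totals, filters, DESeq2 1.42.0, limma-voom (limma 3.58.1), a replicate block, ribosomal RNA rows left out, a thinned deepest library, the 2 groups alone (not for the interaction), and each library left out. No pair of libraries held identical counts, and all replicate pairs differed beyond counting noise (chi-square per degree of freedom 1.85 to 4.73). Promoters were matched by symbol to RefSeq (GRCh38.p14) and overlapping genes by GENCODE 29, both of another build than the counts.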

Additional observations from a re-analysis of the deposited data

How the results depend on the processing

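Over the 41 genes and 5 comparisons, 4402 results under alternatives stayed on the same side of the threshold, 37 lost a call and 30 gained one. No called value changed sign (0), while values that were not called could, such as MCM7 in DMSO, in 10 of 22 alternatives. In DMSO, CDK2, CDC25A, E2F2, GMNN, MCM5, RPA2, FEN1 and TYMS were called in all 22 alternatives, and under drug CDK2, POLA1, RRM2 and TYMS were. The count of genes higher in DMSO was 4 in the fit of the 2 groups alone. With library totals, 8 were higher and 2 lower with knockdown under drug. Leaving out each library, genes higher in DMSO ranged from 1 to 4, genes lower in DMSO from 9 to 11, genes higher under drug from 2 to 3, genes lower under drug from 5 to 7, and genes lower with drug in control cells from 0 to 1. In the library-totals fit the scaling differs by construction; for the other changes the cause was not tested. Where an arm was left with 2 libraries, the spread came from all 4 groups.

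Replicate numbers were not taken to pair the samples, and whether they do is not settled here. The correlation of same-numbered libraries' deviations ran from -0.12 to 0.08. With knockdown in DMSO each knockdown library correlated best with the control library of its own number. With the drug in knockdown cells no drug library did, and the correlations of same-numbered libraries were -0.03, -0.05 and -0.12. In the remaining comparisons of groups some knockdown or drug libraries did and some did not. These correlations are a hint from the data and not the design. The check was made from the knockdown or drug side only. With the replicate block 12 of the 41 genes were called in DMSO and 10 under drug, 0 with the drug in either population and 0 in the interaction, and over all genes 3822, 3827, 150, 147 and 2. Among the 41 genes depth limits CCNE2 most, whose lowest count was 49.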
